A study of Drosophila melanogaster with 3 samples.

Results

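The 8 genes twi, sna, tin, bap, Mef2, nau, sls and Mhc were followed as markers of the embryonic mesoderm and its muscles, 8 of the 13945 protein-coding genes annotated on the 6 chromosome arms. They were chosen by name, with earlier results of these data known. Peak summits lying from 5 kb before to 5 kb after each annotated gene were counted in every deposited peak list. The experiment was a chromatin immunoprecipitation with sequencing (ChIP-seq) of the zinc finger protein CG2678, also named kipferl, in Drosophila melanogaster. A transgenic line stably expressed CG2678 with GFP fused to its C-terminus, and chromatin sonicated to fragments of 200 to 800 bp was precipitated with an antibody against GFP. Whole embryos of mixed sex, 0 to 24 h old, were used in 3 biological replicates, and all of them belong to this 1 group, so the lists allow no comparison between conditions. Whole embryos mix mesoderm and muscle with every other cell type, so occupancy in few cells and weak occupancy in many cannot be told apart, and no expression was measured.

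The mesoderm of the fly embryo is set up on the ventral side, where Twist switches on mesodermal genes and Snail keeps neural ectoderm genes off, and it is then divided into the primordia of heart, gut muscle, fat body and body wall muscle. Tinman and Bagpipe assign the heart and the visceral musculature, Mef2 drives differentiation in all muscle lineages, and the sarcomere genes are its late products. CG2678 is best known from ovaries, where it recruits Rhino, a heterochromatin protein, to the loci from which piRNAs are made.

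The sequence under the strongest peak of the tin, nau, sls and Mhc windows is shown first, beside the sequence before the TSS of the 2 genes whose windows held no peak. No sequence is shown for the twi and Mef2 windows. The strongest peak of any window, just outside Mef2 and described below, is therefore not among them, and the Mhc peak shown is far weaker than it. The first 4 sequences are the 201 bases centred on the strongest summit of a window, given on the plus strand of dm6. The other 2 are the 200 bases before the annotated transcription start site (TSS) of sna and bap, on the strand of the gene, and were picked after the absence of peaks there had been seen. All were read from the RefSeq copy of the assembly. Capitals mark matches, on either strand, to the TATA word TATAAA, the GAGA word GAGAG, an E-box of Twist sites (CACATG), another of these (CATATG), an E-box of Snail sites (CAGGTG), the core of Tinman sites (CAAGTG) and the Mef2 site.
tin promoter, chr3R:21378657-21378857, plus strand: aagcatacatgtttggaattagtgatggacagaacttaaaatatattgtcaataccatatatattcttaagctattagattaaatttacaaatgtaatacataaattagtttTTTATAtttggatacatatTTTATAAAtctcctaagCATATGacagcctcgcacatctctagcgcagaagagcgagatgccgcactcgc
nau upstream peak at CG10365, chr3R:23722918-23723118, plus strand: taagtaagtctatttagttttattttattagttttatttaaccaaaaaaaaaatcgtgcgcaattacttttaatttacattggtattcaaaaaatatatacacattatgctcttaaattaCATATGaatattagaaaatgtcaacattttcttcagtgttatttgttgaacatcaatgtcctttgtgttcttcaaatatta
sls promoter, chr3L:2115781-2115981, plus strand: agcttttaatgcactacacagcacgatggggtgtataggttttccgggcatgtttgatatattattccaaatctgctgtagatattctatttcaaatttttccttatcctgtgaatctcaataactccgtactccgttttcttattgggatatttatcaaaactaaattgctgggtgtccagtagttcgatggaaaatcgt
Mhc downstream peak at Cyt-b5-r, chr2L:16791029-16791229, plus strand: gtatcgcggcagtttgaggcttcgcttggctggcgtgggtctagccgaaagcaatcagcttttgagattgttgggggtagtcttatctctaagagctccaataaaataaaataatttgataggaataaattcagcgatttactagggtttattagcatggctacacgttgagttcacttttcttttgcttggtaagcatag
sna upstream sequence without a peak, chr2L:15478261-15478460, minus strand: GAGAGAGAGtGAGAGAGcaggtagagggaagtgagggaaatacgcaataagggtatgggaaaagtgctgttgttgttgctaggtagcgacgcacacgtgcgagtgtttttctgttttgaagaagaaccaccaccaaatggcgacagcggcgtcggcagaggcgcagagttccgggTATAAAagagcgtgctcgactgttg
bap upstream sequence without a peak, chr3R:21388680-21388879, plus strand: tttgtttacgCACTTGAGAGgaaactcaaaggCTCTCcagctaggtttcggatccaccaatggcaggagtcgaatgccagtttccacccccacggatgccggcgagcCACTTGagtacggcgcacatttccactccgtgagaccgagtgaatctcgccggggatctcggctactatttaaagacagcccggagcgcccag

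The 201 bases at the tin promoter peak were 31.3% G or C, those of the nau peak 21.9%, those of the sls promoter peak 36.3% and those of the Mhc peak 41.3%. The 200 bases before sna were 52.0% G or C and those before bap 56.5%, against 38.6% ± 8.83 (SD) before the 13945 protein-coding genes. That mean was 38.0% for genes with an IDR promoter summit and 38.7% for the others. Windows centred on a summit and windows next to a TSS are not the same measure. Over the 500 bases before the TSS, taken alike for all, the share was 40.2% at tin and 41.0% at sls, which had promoter peaks, and 48.4% at bap and higher still at sna, which had none. Other TSSs went the other way, with 33.8% before the twi TSS at 23046108 and 33.4% before the Mhc TSS at 16767777, neither with an IDR promoter summit, and 45.2% before the Mef2 TSS at 9944764, which had one. The tin window held 3 TATAAA matches, 2 of them overlapping, and 1 CATATG, the nau window 1 CATATG, and those of sls and Mhc no match. The sna sequence held 1 TATAAA and 5 GAGAG matches that overlap in runs, and the bap sequence held 2 GAGAG and 2 CAAGTG matches, of which 1 pair overlaps. Among 201-base windows at all 9459 IDR summits, 39.1% held TATAAA, 20.9% GAGAG, 7.62% CACATG, 7.99% CATATG, 4.08% CAGGTG, 11.5% CAAGTG and 13.2% the Mef2 site. In the 200 bases before protein-coding genes the shares were 36.9%, 22.1%, 6.36%, 5.42%, 6.34%, 11.4% and 11.2% in the same order. A match is a description of letters and was not tested as a binding site.

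The authors deposited a list of 30000 peaks for each replicate, a list of 30000 peaks for the pooled replicates, and the 9459 pooled peaks that passed their threshold on the irreproducible discovery rate (IDR), a measure of how well ranks repeat between replicates. Each peak carries a signal value, which is the authors' own and is used here only to describe and rank peaks within a list, with rank 1 the strongest. Signals of the IDR peaks ran from 236.7 to 19817. Read counts per replicate were not given in the sources used here, so the counting error of a peak is unknown and the spread between the 3 replicates is the error given. For counts per replicate, each replicate list was limited to its 9459 strongest peaks.

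Of the 8 genes, 6 (75.0%) had an IDR summit in their window, against 53.7% of protein-coding genes. The genes without one were sna and bap. The same 6 genes had a pooled-list summit in the window, against 62.9% of protein-coding genes. In the gene body, 3 of the 8 (37.5%) had an IDR summit, namely twi, Mef2 and nau, against 17.1%. The twi summits lay in an intron of its long transcript alone. With twi taken from its 2 downstream TSSs, an alternative added after the data had been seen, 2 of the 8 (25.0%) had a body summit. Within 500 bp of a TSS of their own, 3 of the 8 (37.5%) had one, namely tin, Mef2 and sls, against 22.5%. The strongest peaks of each replicate gave a promoter summit to the same 3 genes in replicates 1, 2 and 3. At Mef2 the TSS differed, being 9944764 in replicate 1 and 9958858 in replicate 3. Replicate 2 held 3 Mef2 promoter summits, among them summits at both of these TSSs. The share over protein-coding genes was 29.5%, 23.2% and 21.7% (24.8% ± 4.13, SD, n = 3). The 8 genes had a median length of 13872 bp, against 2166 bp for protein-coding genes, and longer genes have wider windows, so the shares for window and body are not shares of equal target size.

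The 8 windows summed to 298.2 kb, with the 3091-bp overlap of tin and bap included in both. They held 26 IDR summits in 24 peak intervals, 17 of them in the gene bodies and 9 in the flanks. With the overlap counted once, this was 0.881 summits per 10 kb, against 0.707 over the 6 arms. Mef2 alone contributed 15, and without its window, a calculation added after its count was known, 11 summits remained at 0.459 per 10 kb. The strongest peaks of the replicates gave 24, 25 and 23 summits in the 8 windows (24.0 ± 1.00, SD, n = 3). Of the 9 flank summits, 7 lay nearer to the TSS of another gene than to that of the gene whose window held them. Signals in the windows had a median of 522.3, against 520.5 for all IDR peaks, and ran from 239.5 to 11144. Among the 1000 strongest of the 9459 IDR peaks were 4 of the 26 summits, and 13 lay below rank 4729, the middle of the list.

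**Figure D1:**
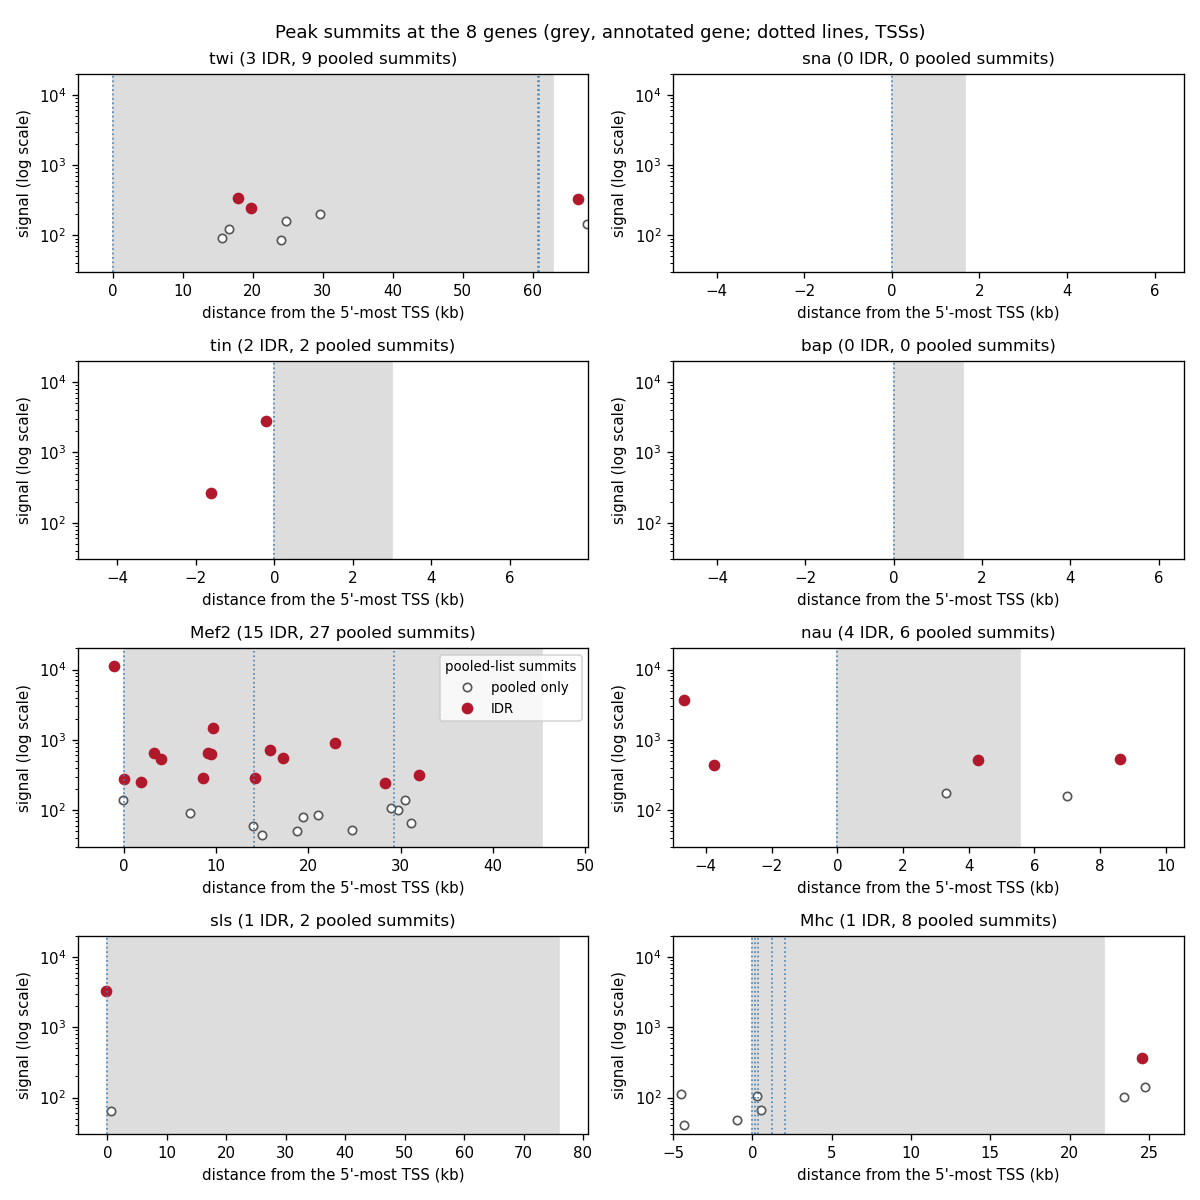
Pooled-list summits in the 8 windows, by distance from the 5'-most TSS in kb (x axis, in the direction of transcription) and the authors' signal value (y axis, log scale); filled points passed the IDR threshold, open points did not, grey marks the annotated gene and dotted lines its TSSs. Mef2 is filled along much of its length, tin and sls each have 1 strong point at the TSS, and sna and bap are empty.

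By position, 10 of the 26 summits (38.5%) were within 500 bp of a TSS of any gene, against 34.3% of all IDR summits. Of these 10, 4 belonged to the 8 genes and 6 to neighbours. Introns held 14 (53.8%, against 45.6%), intergenic sequence 1 (3.85%, against 17.5%) and a 5' UTR 1 (3.85%), and none lay in coding sequence or a 3' UTR. The windows span genes and 5 kb beside them, so the rule itself leaves out distal intergenic sequence. The shares by position are therefore not like for like with those of all IDR summits. Of the 26, 16 (61.5%) lay within 100 bp of a strongest-peak summit of every replicate, against 62.0% of all IDR summits. Another 8 were matched in 2 replicates, 1 in 1 replicate and 1 in none.

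**Figure D2:**
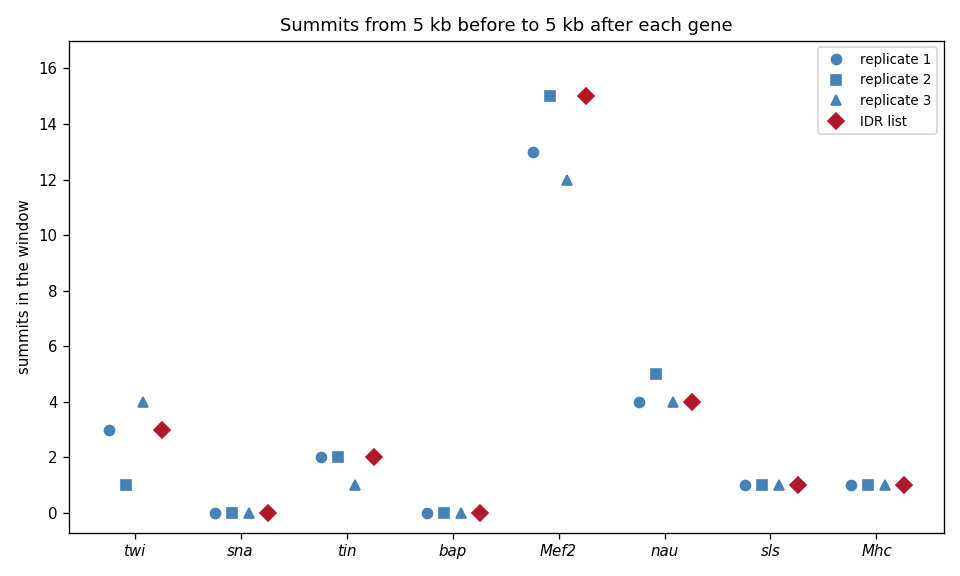
Number of summits in each gene's window (y axis) among the 9459 strongest peaks of each replicate (blue) and in the IDR list (red). Mef2 has 12 to 15 in every list, nau 4 or 5, twi 1 to 4, sls and Mhc 1, and sna and bap 0.

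twi encodes the basic helix-loop-helix activator that starts mesoderm formation. It is annotated as FBgn0003900 on 2R from 22985374 to 23048325, plus strand, and its 62952 bp come from 1 transcript with a distant TSS at 22985374, while the other TSSs lie at 23046108 and 23046322. The strongest peaks gave 3, 1 and 4 summits in its window in replicates 1, 2 and 3 (2.67 ± 1.53), and the IDR list gave 3. Replicate 2 was the low one, and all 3 values lay far under those of Mef2.

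The 2 IDR summits inside twi, at 23003250 and 23005071, lay in the 60401-bp intron 2 of the long transcript. Their nearest TSS was that of CG9896, 4366 and 6187 bp away, against 17876 and 19697 bp for the nearest of twi. The strongest in the window, at 23003250, had a signal of 341.2 and rank 7004 in the pooled list, and ranks 6156, 8493 and 7337 in replicates 1, 2 and 3. The summit at 23005071 (signal 246.4, rank 9145) ranked 10943, 10228 and 9981 and was the only 1 of the 26 that reached the strongest peaks of no replicate. The remaining IDR summit, at 23051837, was intergenic, 3637 bp upstream of Fatp2, which encodes a fatty acid transport protein, and it was missing from replicate 2. No list held a summit within 500 bp of any twi TSS, and the nearest pooled summit was 5515 bp downstream of the TSS at 23046322. With the twi window measured from the 2 downstream TSSs alone, the 8 windows held 24 IDR summits.

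sna, which encodes a zinc finger repressor of non-mesodermal genes, is FBgn0003448, a 1668-bp gene on 2L from 15476593 to 15478260, minus strand. Its window held 0 summits in the IDR list, in the pooled list and in the full lists of replicates 1 and 2. Replicate 3 alone listed 3, at ranks 19606 to 29152 of 30000, the nearest 1204 bp upstream of the TSS. The nearest IDR summit was 12805 bp upstream, at rank 7091.

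tin encodes the NK homeodomain factor needed for heart and visceral mesoderm, and bap the NK homeodomain factor of visceral mesoderm that acts after it. The neighbouring genes lie on the plus strand of 3R, tin (FBgn0004110) from 21378977 to 21381970 and bap (FBgn0004862) from 21388880 to 21390449, and their windows overlap by 3091 bp. The strongest peaks gave 2, 2 and 1 summits in the tin window (1.67 ± 0.577) and 0, 0 and 0 in the bap window. Every replicate value was higher for tin.

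The tin promoter peak spanned 21378536 to 21378975, with its summit at 21378757, 220 bp upstream of the TSS. It had a signal of 2799 and ranked 546 in the pooled list, and 554, 485 and 726 in the 3 replicates, with summits 221, 220 and 234 bp upstream. All replicates thus placed it among their 1000 strongest peaks and close to 1 position. The other summit of the window, at 21377367, lay 34 bp inside mod(mdg4), a chromatin protein gene, with a signal of 267.6 and rank 8579, and ranked 9103 and 9047 in replicates 1 and 2 with no summit in replicate 3. bap had 0 summits in its window in all 5 lists, full replicate lists included. The nearest IDR summit to its TSS was the tin promoter peak, 10123 bp upstream.

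Mef2 encodes the MADS-box factor of muscle differentiation. It is FBgn0011656 on 2R from 9913496 to 9958858, minus strand, 45363 bp long, with TSSs at 9958858, 9944764 and 9929615. The strongest peaks gave 13, 15 and 12 summits in its window (13.3 ± 1.53), and the IDR list gave 15, of which 14 were in the gene. The window was the fullest of the 8 in each of these lists, and its lowest replicate value, 12, exceeded the highest of any other gene, which was 5. These counts are not corrected for window size. Per 10 kb of window the IDR list gave 2.71 summits at Mef2, close to the 2.57 of the much shorter nau window. The pooled list held 27.

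Most of these summits were intronic. Of the 14 in the gene, 11 lay in introns 1 and 2, which are 17170 and 18741 bp long, 2 lay within 500 bp of a TSS and 1 in a 5' UTR exon. These introns make up most of the 45363-bp gene, so their holding most of the summits is no sign of a preference for introns. The strongest in the gene, at 9949201 in intron 1, had a signal of 1451 and ranked 1471 in the pooled list, and 1484, 1742 and 1130 in the replicates. It shared a 1142-bp interval with summits at 9949462 (signal 631.9) and 9949727 (signal 645.9). The next were 9935989 in intron 2 (signal 892.4, rank 2698) and 9942982 in the 5' UTR (signal 718.7, rank 3414). All 5 were matched in every replicate, as were 8 of the 15 in the window.

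Mef2 promoters carried weaker peaks. The summit 55 bp inside the TSS at 9958858 had a signal of 273.5 and rank 8409, with ranks 8020 and 8344 in replicates 2 and 3 and no summit in replicate 1. The summit 155 bp inside the TSS at 9944764 had a signal of 287.5 and rank 8064, and ranked 6710, 8377 and 20744. At 9929615, where 8 of the 11 transcripts start, the nearest IDR summit was 905 bp upstream (signal 239.5, rank 9366) and the nearest pooled summit 250 bp upstream, at rank 16936. None of the 3 TSSs thus had an IDR summit within 500 bp that was matched in all replicates.

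The strongest peak of all 8 windows lay just outside Mef2, from 9959635 to 9960185, with a signal of 11144 and rank 20. It ranked 12, 31 and 29 in the replicates. Its summit, at 9959905, was 1047 bp upstream of the nearest Mef2 TSS, but only 173 bp upstream of a TSS of Pal1, which encodes an enzyme of peptide amidation, and of the TSS of the prefoldin-like gene Pdrg1. It lay inside the annotated Pal1 gene, which has a further TSS on the other side of the summit. It is therefore a promoter peak of these neighbours by the distance rule.

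**Figure D3:**
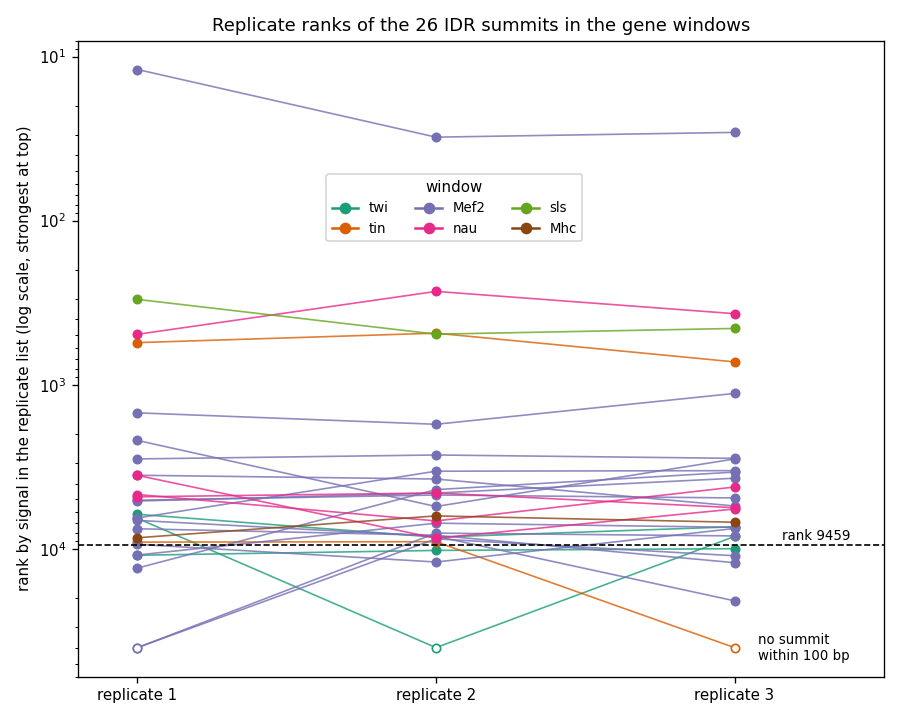
Rank by signal (y axis, log scale, strongest at top) of the 26 IDR summits in each replicate list (x axis), joined by a line per summit and coloured by window; the dashed line is rank 9459 and open points at the bottom mark the absence of a summit within 100 bp. The peak next to Mef2 (ranks 12, 31 and 29) and the strongest peaks of nau, sls and tin keep ranks under 1000 in all 3 replicates, while weak summits scatter around the dashed line.

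Length alone gives a gene more room for summits, so Mef2 was set beside the 1013 protein-coding genes of at least 20 kb. Its 14 body summits came to 3.09 per 10 kb, and 25 of the 1013 (2.47%) had a higher density, against a median of 0.490 per 10 kb and 2.00 summits per gene. Of the 369 genes at least as long as Mef2, 339 had at most 14. twi, as annotated with its long transcript, had 0.318 per 10 kb, and 603 of the 1013 (59.5%) were denser. From its 2 downstream TSSs it was 2218 bp long, under the length limit, with 0 body summits. sls and Mhc had 0 body summits, as did 276 (27.2%) of these long genes. Of the 148 genes at least as long as sls, 26 had none.

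**Figure D4:**
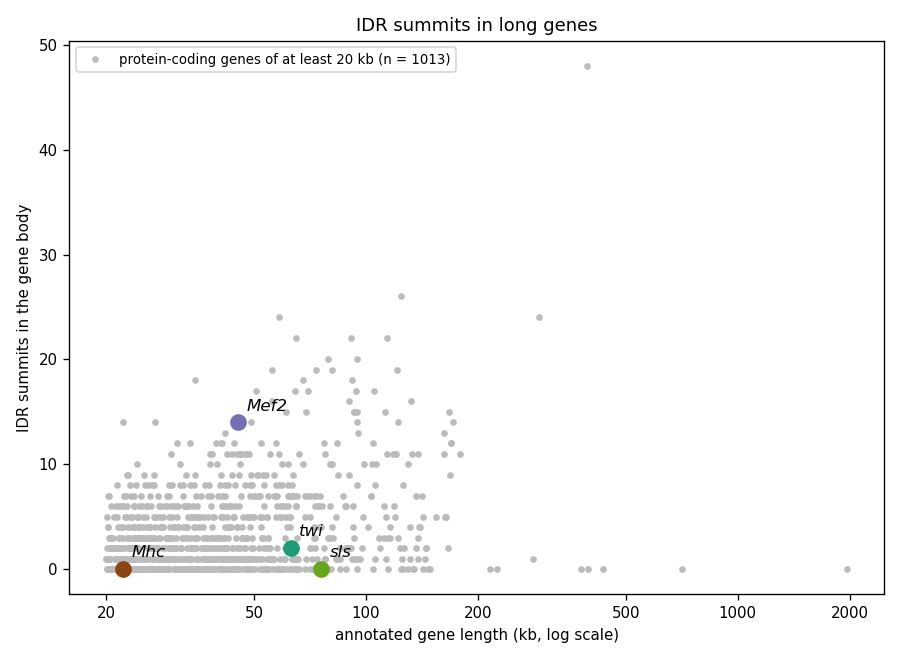
IDR summits in the gene body (y axis) against annotated gene length in kb (x axis, log scale) for the 1013 protein-coding genes of at least 20 kb (grey), with Mef2, twi, sls and Mhc in colour. Mef2, with 14, lies near the upper edge for its length, while sls and Mhc lie at 0.

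nau encodes the single fly member of the MyoD family of basic helix-loop-helix factors and marks a subset of muscle founder cells. It is FBgn0002922 on 3R from 23712814 to 23718357, minus strand, 5544 bp long. The strongest peaks gave 4, 5 and 4 summits in its window (4.33 ± 0.577), and the IDR list gave 4, all matched in every replicate. The strongest, from 23722767 to 23723453 with its summit at 23723018, had a signal of 3652 and rank 341, and ranked 493, 270 and 369. It lay 4661 bp upstream of nau and 313 bp upstream of CG10365. The summits at 23709753 (signal 531.9, rank 4628) and 23722121 (signal 442.7, rank 5495) were likewise at the promoters of neighbours, 405 bp upstream of CG10301 and 496 bp upstream of CG10232. Only the summit at 23714077, in intron 3, lay in nau itself, with a signal of 517.0 and rank 4761, and ranks 4668, 6761 and 4201. Its nearest TSS was that of CG10300, 2550 bp away, against 4280 bp for that of nau. The nearest IDR summit to the nau TSS was 3764 bp upstream.

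sls encodes Sallimus, the titin-like elastic protein of the sarcomere, and Mhc encodes the muscle myosin heavy chain. sls is FBgn0086906 on 3L from 2039681 to 2115611, minus strand, with 1 TSS shared by 13 transcripts, and Mhc is FBgn0264695 on 2L from 16766566 to 16788766, plus strand, with 5 TSSs. The strongest peaks gave 1, 1 and 1 summit in each of these windows, and the IDR list also gave 1 in each. The counts were equal, but the peaks differed in place and rank.

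The sls peak, from 2115641 to 2116146, had its summit at 2115881, 270 bp upstream of the TSS, with a signal of 3249 and rank 428. It ranked 302, 492 and 454 in the replicates, with summits 271, 290 and 254 bp upstream. The 75931-bp gene behind it held no IDR summit, and the best rank in its body was 19518 in replicate 1 and 15262 in replicate 3, with no summit in replicate 2. The Mhc window's IDR summit, at 16791129, lay past the 3' end of Mhc and 408 bp upstream of Cyt-b5-r, a gene related to cytochrome b5, with a signal of 369.4 and rank 6494, and ranks 8563, 6300 and 6886. At the Mhc promoter itself the pooled list held only summits below the IDR threshold, at 16766885 (signal 103.4, rank 17307), 41 bp upstream of the TSS at 16766926, and at 16767127 (signal 65.80, rank 22996). With the pooled list, 4 of the 8 genes had a promoter summit. The share of protein-coding genes with a pooled promoter summit is not given here. The 22.5% given above is for the shorter IDR list and is not a like measure.

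Summits in the windows lay in sequence poorer in G and C than their surroundings. The 101 bases around the 26 summits were 34.8% ± 9.89 G or C, against 43.9% ± 6.30 (SD over summits) in windows 300 bp to either side, and 21 of the 26 (80.8%) were lower at the summit. Over all IDR summits the values were 32.4% and 43.8%, lower at 79.9%. At the 9459 weakest pooled summits they were 42.1% and 41.9%. Summits are not independent replicates, and these values describe the lists.

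The dip differed between summits. It was deepest at the weak twi summit at 23005071, with 23.8% at the summit and 56.4% beside it, followed by the tin promoter (17.8% and 48.5%) and the nau summits near CG10365 (22.8% and 52.0%) and in intron 3 (22.8% and 51.5%). At sls it was 30.7% and 37.6%. In the Mef2 window the means were 38.6% and 41.7%, lower at 11 of 15 summits. The 5 summits that were not lower were 4 in Mef2, among them those in the 5' UTR (58.4% and 47.5%) and 55 bp inside the TSS at 9958858 (52.5% and 36.1%), and the tin-window summit at mod(mdg4) (48.5% and 39.1%). The lowest 101-bp window in the 500 bp before the TSS was 14.9% at tin, centred 231 bp upstream, and 28.7% at sls, centred 276 bp upstream, each close to the peak summit. At the Mef2 TSSs at 9958858 and 9944764 it was 24.8% and 29.7%, centred 234 and 374 bp upstream. Their IDR promoter summits lay 55 and 155 bp inside the TSS, outside the stretch measured. The same measure gave 37.6% at sna and 31.7% at bap, and 21.8% before the twi TSS at 23046108, where no list held a summit.

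**Figure D5:**
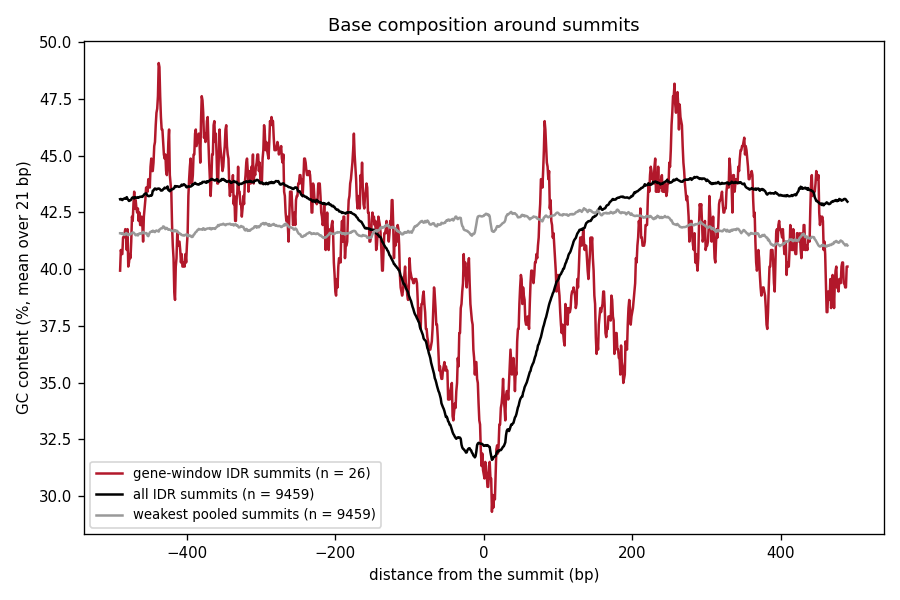
GC content in percent, as a 21-bp running mean (y axis), by distance from the summit in bp (x axis) for the 26 IDR summits in the gene windows (red), all 9459 IDR summits (black) and the 9459 weakest pooled summits (grey). The red and black lines dip at the summit and the grey line does not; the red line is noisy because it averages 26 windows.

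Words known from sites of the mesodermal factors were counted within 50 bp of the summits. CACATG and CATATG, E-boxes of Twist sites, were found at 1 summit (3.85%, Mef2) and 2 summits (7.69%, Mef2 and nau), against 3.69% and 4.12% of all IDR summits. CAGGTG, an E-box word of Snail sites, and CAAGTG, the Tinman core, were found at 0, against 1.83% and 5.14%. The Mef2 site was found at 1 (3.85%, against 7.84%), the Mef2 summit at 9930520. TATAAA was found at 4 (15.4%, against 25.1%), AAAAAA at 7 (26.9%, against 27.8%) and GAGAG at 2 (7.69%, against 8.77%). With 26 summits, a difference of 1 summit moves such a share by 3.85 percentage points.

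Other genes of the same programme were counted by lists of mesoderm formation, muscle identity and sarcomere genes, which exclude the 8. Of 29 mesoderm formation genes, 6 (20.7%) had an IDR summit at a promoter, as defined above, against 22.5% of protein-coding genes, and 7, 5 and 4 had one among the strongest peaks of the replicates (18.4% ± 5.27, n = 3). The strongest were at stumps (signal 1647) and htl (signal 1391), the adaptor and the receptor of FGF signalling in mesoderm spreading, and at mthl1 (signal 1093), also named mist, the receptor of the Fog signal in mesoderm folding. Their windows held an IDR summit for 21 of 29 (72.4%, against 53.7% of protein-coding genes) and their bodies for 11 (37.9%, against 17.1%). The list had a median gene length of 11136 bp, against 2166 bp, and the part of length in these shares was not tested.

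Of 17 muscle identity genes, 2 (11.8%, against 22.5%) had an IDR promoter summit, and 2, 3 and 2 had one in the replicates (13.7% ± 3.40). These were org-1, a T-box factor of muscle founder cells, with a signal of 3143, and sd, the DNA-binding partner of Vestigial, with 315.8. Windows held a summit for 6 (35.3%, against 53.7%) and bodies for 4 (23.5%, against 17.1%), at a median length of 13599 bp. Of 34 sarcomere and muscle attachment genes, 10 (29.4%, against 22.5%) had an IDR promoter summit, and 9, 10 and 9 in the replicates (27.5% ± 1.70). The strongest were at Msp300 (signal 4167), a giant protein that positions muscle nuclei, Tm1 (signal 1627), a tropomyosin gene, and the actin gene Act87E (signal 1613). Windows held a summit for 22 (64.7%, against 53.7%) and bodies for 13 (38.2%, against 17.1%), at a median length of 6799 bp. The median promoter signal was 706.0, 1729 and 539.1 in the 3 lists in this order, against 818.1 for all genes with an IDR promoter summit. These medians rest on 6, 2 and 10 genes, and that of muscle identity is the midpoint of org-1 and sd alone. No test was run on these lists.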

How the data were processed

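The analysis began from peak lists in narrowPeak format on dm6, called by the authors for each of 3 replicates, for the pooled replicates and after IDR thresholding, per the file descriptions. Of the aligner and peak caller, names and settings were not given in the sources used here. Column 7 of each deposited list is the authors' signal score per peak, whose scale is not stated, and column 10, another deposited value, is the summit's offset from the peak start. Depth per replicate is not recorded in the lists, so no counting interval could be given. Nothing in the labels ties the replicates to shared batches.

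Ranks, distances and classes were computed with Python 3.11.15, pandas 2.3.3 and numpy 2.4.6, and figures drawn with matplotlib 3.10.9, from Ensembl release 115 gene models and the RefSeq genome sequence. Coordinates are 1-based. A summit was a promoter summit if within 500 bp of any TSS, and otherwise took the class of the feature it lay in, with UTRs and coding exons before introns. A replicate match was a summit within 100 bp among the 9459 strongest peaks of that replicate. Negative distances in the tables were written as upstream.

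The members and lists were chosen with earlier results of these data known. Named genes were the 8 members, genes holding or nearest to a summit of their windows, and the 3 genes of each list with the strongest promoter summit. Alternatives changed the list, window, promoter width, match distance and replicates used. No test was made, because the samples form 1 group.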

Additional observations from a re-analysis of the deposited data

How the results depend on the processing

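Of 49 alternative values for the 5 counts, 40 stayed within 1.5 times the reported count or 1 SD of the replicate mean. Some of these could not have moved. With 3 replicates, leaving 1 out cannot shift their mean by 1 SD, so those values stay by construction. Matches required in 2 replicates instead of 3 can only stay or rise. The tally is therefore no measure of stability. The stronger members of the IDR list, its upper 50%, left 13 summits in the windows, and the same limit on the replicate lists gave a mean of 11.0. The gene body alone left 3 genes with a summit, 17 summits and 9 matched in every replicate. The pooled list gave 54 summits, and all 30000 peaks of each replicate a mean of 62.0. Without Mef2, chosen after seeing the data, 11 summits and 8 matched summits remained. Without each replicate in turn, 18 to 19 summits were matched in both others, 6 genes kept a summit in their window and 2 to 3 a promoter summit, and the replicate mean was 23.5 to 24.5. No paired analysis was possible because the samples form 1 group. The distant TSS of twi rests on 1 transcript. A control library named in the labels was not analysed here, and depth per replicate is unknown.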
